A study of Mus musculus with 6 samples.

Results

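The nuclear genes of respiratory complexes II to V were followed in RNA-seq libraries of cultured primary endothelial cells from the lungs of C57BL/6 mice. The members are all gene symbols of the count tables that name succinate dehydrogenase subunits (Sdha to Sdhd), subunits of the cytochrome bc1 complex (Uqcr symbols and Cyc1), numbered cytochrome c oxidase subunits from Cox4 to Cox8, and ATP synthase genes (Atp5 symbols). The pattern matched 48 of 33006 symbols, with 4 in complex II, 9 in complex III, 18 in complex IV and 17 in complex V. Atp5s and Atp5sl fall under the pattern by name but are not structural subunits of the synthase. Cells were exposed for 6 h to 300 uM hydrogen peroxide (H2O2) in the tested libraries, and to water in the control libraries, when the cultures had reached 80% confluence. Each group has 3 libraries, made from 100 ng of total RNA each, and no label tells whether a culture or an animal was behind each of them. The p-values therefore speak of the spread among these 6 libraries, part of which may be technical.

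These complexes sit in the inner mitochondrial membrane. Complex II feeds electrons from succinate into ubiquinone, complex III passes them on to cytochrome c while pumping protons, complex IV hands them to oxygen, and complex V lets the protons flow back to make ATP. Most of their subunits are made from nuclear genes and imported, and a few core subunits of complexes III to V come from mitochondrial DNA. Lung endothelial cells take much of their ATP from glycolysis, and their respiratory chain is also studied as a source of reactive oxygen species and as a target of oxidants.

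The libraries held 22455388 to 27618679 gene counts. Within groups, no pair of libraries was a repeat of the same counts: chi-square over its degrees of freedom was 1.62 to 11, and the highest values, 8.61 and 11, were those of H2O2 replicate 3 with the other H2O2 libraries. The 8 endothelial markers, among them Pecam1, Cdh5, Kdr and Tek, summed to 4088 to 4121 CPM (counts in proportion to library totals adjusted by TMM factors, on the usual CPM scale) in H2O2 libraries and 3843 to 3973 CPM in control libraries. Of these 8 markers 3 rose, Emcn 1.18-fold (edgeR adjusted p = 1.09e-06), Tek 1.12-fold (0.000436) and Pecam1 1.07-fold (0.00516), and 0 fell; their part in the members' changes was not tested. The 6 lung epithelial markers summed to at most 0.193 CPM in H2O2 libraries and 0.157 CPM in control libraries, with Sftpc, Scgb1a1 and Krt8 at 0 in all 6 libraries. The 7 mesenchymal markers summed to 6.97 to 9.75 CPM in H2O2 libraries and 8.57 to 9.86 CPM in control libraries. The 6 leukocyte markers summed to 163 to 169.9 CPM in H2O2 libraries and 157 to 164 CPM in control libraries, nearly all of it from Cd68, with Cd3e at 0 in all libraries. In bulk RNA, fewer cells of a type and less RNA per cell cannot be told apart.

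After H2O2 most of the measured subunit genes were higher by a modest amount. Of the 48 members, 44 passed the filter on low counts and were tested across 12924 genes with edgeR's quasi-likelihood test, with a threshold of 0.05 on the Benjamini-Hochberg adjusted p. Among these 44 members, 28 rose and 2 fell, against 9.70% of all tested genes that rose and 10.8% that fell (20.5% in either direction). The median log2 fold change (H2O2 over control) was 0.21 over the tested members and 0 over all tested genes. In 30 members every H2O2 library lay above every control library, which held for 16.5% of all tested genes, and in 4 members every H2O2 library lay below, which held for 18.2%. The largest called rise, that of Atp5e, was 1.49-fold, and the largest called fall, that of Sdha, was to 0.905 of its control level. Together the members took 0.626%, 0.614% and 0.628% of gene counts in H2O2 libraries, against 0.594%, 0.580% and 0.594% in control libraries.

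**Figure D1:**
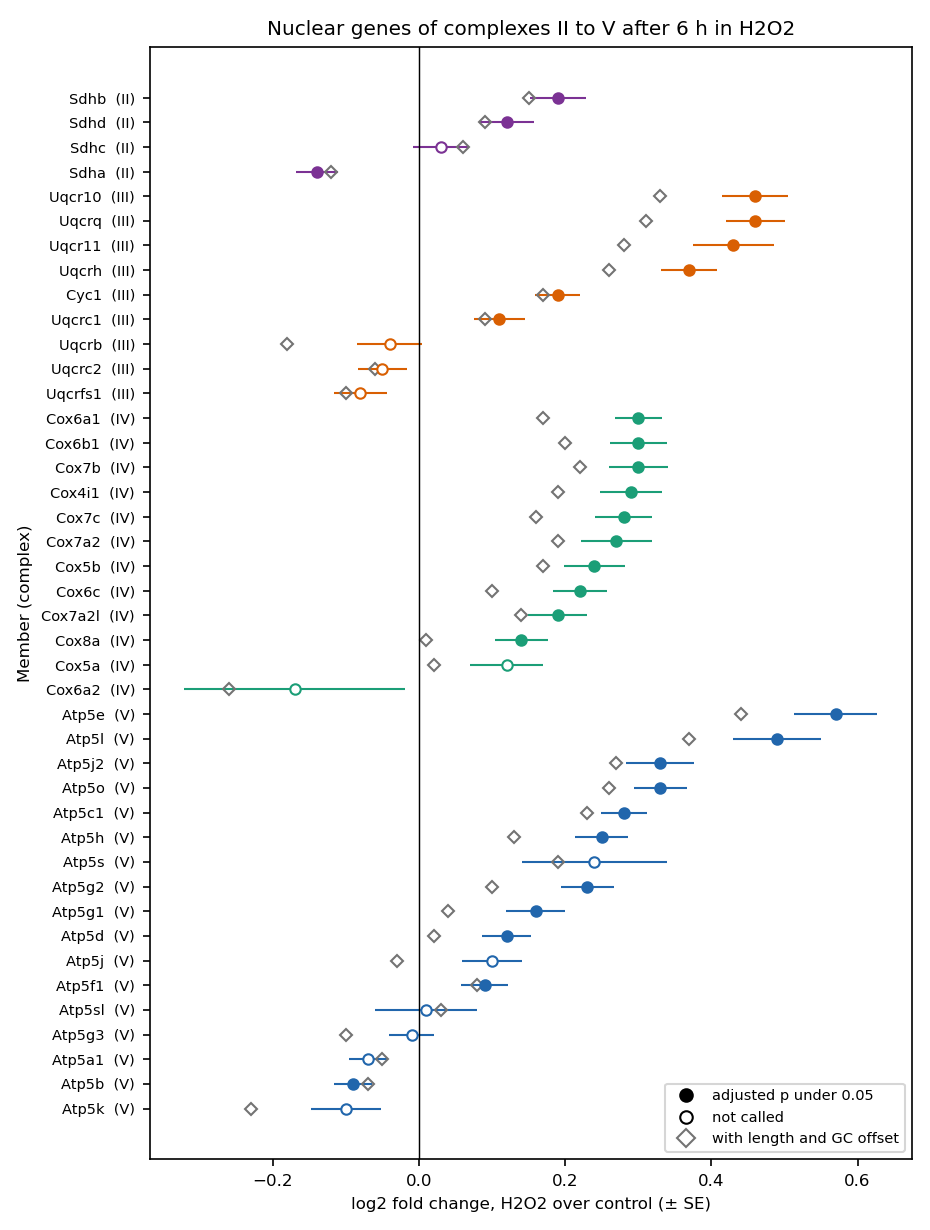
Log2 fold change of each tested member, H2O2 over control, with its standard error (n = 3 libraries a group), grouped by complex; filled circles passed the test, open circles did not, and grey diamonds give the value after correction for length and GC of transcripts. Most circles lie to the right of 0, Sdha and Atp5b pass to the left, and Cox7a1 and Cox8b, below 1 CPM, are not drawn.

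Transcript length is a feature that most members share outside the rule. The tested members' transcripts run from 360 to 3171 bases with a median of 697 bases, against 2737 bases over all tested genes. Short transcripts in general were higher after H2O2. Tested genes that are no members had a median log2 fold change of 0.19 below 500 bases (243 genes), 0.09 from 500 to 1000 bases (929 genes), 0.02 from 1000 to 2000 bases (2975 genes) and -0.02 from 2000 to 4000 bases (5089 genes). The members lay above these values in the shorter classes, at 0.46 (9 members), 0.24 (19 members) and 0.15 (12 members), and at -0.03 in the class of 2000 to 4000 bases (4 members). Of the 19 members of 500 to 1000 bases 73.7% rose, against 23.3% of the other genes of that class. With an offset that removes the trend of each library with length and GC content, 22 members rose, 6 fell and the median log2 fold change was 0.13, while 9.09% of all tested genes rose and 10.7% fell. All 22 of these rises were among the 28 without the offset. The part of transcript length in the result of any single member was not tested. Some members also share sequence with other genes, which can be copies or genes that overlap them on the other strand. Of 16 tested members that share over 10% of their 50-base words with transcripts of other genes, 13 rose and 0 fell (median 0.24). Of the other 28 members 15 rose and 2 fell (median 0.16).

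**Figure D2:**
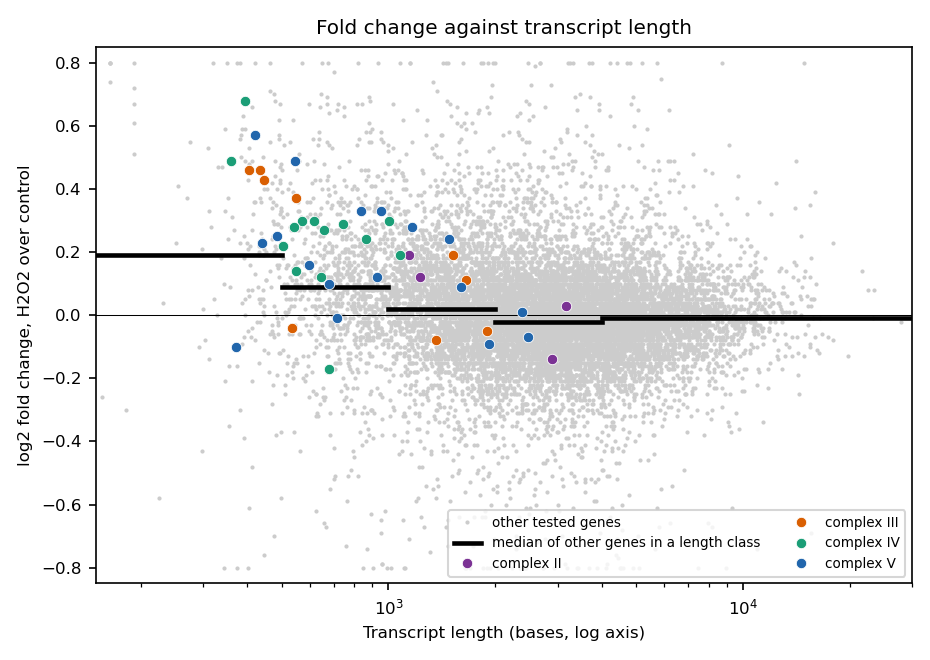
Log2 fold change, H2O2 over control, against transcript length in bases on a log axis, with members coloured by complex, other tested genes in grey (values beyond 0.8 are drawn at 0.8) and black bars for the median of the other genes in each length class. The bars step down from 0.19 below 500 bases to -0.02 between 2000 and 4000 bases, and most coloured points lie above the bar of their class.

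Because many members moved in the same direction, the DNA upstream of their start sites was searched for the cores of factors known to drive respiratory genes. NRF1 was searched as GCATGCG, the ETS family that includes GABP as CCGGAAG, and YY1 as AAGATGG, each on both strands and in the 250 bases before each RefSeq start site (GRCm38.p6). Matches can overlap: the end of the ETS core is the start of the YY1 core, the NRF1 core can share an end base with the others, and the ETS and NRF1 cores can each overlap their own match on the opposite strand. RefSeq sequence was found for 37 of the 48 members, with 41 promoters. The ETS core stood in 8 of 26 promoters of members that rose (30.8%) and in 0 of 2 of those that fell, against 6.91% of all 32851 promoters and 13.3% of those of tested genes. The NRF1 core stood in 4 of the 26 (15.4%), against 3.02% of all promoters and 5.20% of those of tested genes, and the YY1 core in 0 of the 26, against 4.49% of all promoters. In the 11 promoters of members that were tested and not called, the ETS core stood in 1 (9.09%). The NRF1 core stood in 2 of these 11 (18.2%) and the YY1 core in 2 (18.2%). A match is a description of the letters in this window and not of binding. The sequences below are those of the 3 members with the smallest p among rises with a RefSeq promoter, and of both members that fell. Each runs 5′ to 3′ toward the start site, and capitals mark a match to a searched core. Uqcr10 (chr11:4704345-4704594, minus strand), Atp5e (chr2:174464102-174464351, minus strand), Uqcrh (chr4:116075071-116075320, minus strand), Sdha (chr13:74350241-74350490, minus strand) and Atp5b (chr10:128083057-128083306, plus strand) are given in that order.
Uqcr10: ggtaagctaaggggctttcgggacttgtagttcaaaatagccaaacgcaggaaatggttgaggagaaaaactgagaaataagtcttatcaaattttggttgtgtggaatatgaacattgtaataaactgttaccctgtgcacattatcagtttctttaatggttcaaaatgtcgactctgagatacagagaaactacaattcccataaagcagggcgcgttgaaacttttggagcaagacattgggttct
Atp5e: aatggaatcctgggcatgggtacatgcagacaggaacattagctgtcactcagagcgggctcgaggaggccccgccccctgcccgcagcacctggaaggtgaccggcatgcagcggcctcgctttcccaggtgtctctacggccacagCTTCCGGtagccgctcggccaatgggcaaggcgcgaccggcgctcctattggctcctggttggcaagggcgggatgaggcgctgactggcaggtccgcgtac
Uqcrh: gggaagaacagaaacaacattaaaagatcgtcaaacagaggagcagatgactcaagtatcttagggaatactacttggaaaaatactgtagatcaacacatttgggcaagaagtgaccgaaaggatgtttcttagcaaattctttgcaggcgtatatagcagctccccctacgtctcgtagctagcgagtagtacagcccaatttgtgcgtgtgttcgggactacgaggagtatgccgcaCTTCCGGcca
Sdha: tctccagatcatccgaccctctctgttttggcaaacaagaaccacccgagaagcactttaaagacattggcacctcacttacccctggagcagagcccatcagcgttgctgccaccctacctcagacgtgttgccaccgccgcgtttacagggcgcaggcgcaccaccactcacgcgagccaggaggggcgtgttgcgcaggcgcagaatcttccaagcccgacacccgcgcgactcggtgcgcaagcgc
Atp5b: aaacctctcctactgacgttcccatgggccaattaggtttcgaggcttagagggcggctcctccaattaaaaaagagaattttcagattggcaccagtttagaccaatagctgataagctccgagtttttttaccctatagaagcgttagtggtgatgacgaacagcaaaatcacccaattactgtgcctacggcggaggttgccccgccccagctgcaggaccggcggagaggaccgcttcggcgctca
In Atp5e the ETS core begins 102 bases before the start site and in Uqcrh 10 bases before it, both on the opposite strand. The windows of Uqcr10, Sdha and Atp5b hold none of the 3 cores.

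Complex II moved in both directions, with 2 of 4 members higher and 1 lower. Its catalytic pair split. Sdha, the flavoprotein that oxidises succinate, stood at 237, 232 and 234 CPM in H2O2 libraries and at 256, 259 and 261 CPM in control libraries. All 3 H2O2 libraries lay below all controls, with a log2 fold change of -0.14 (SE 0.0287, edgeR adjusted p = 0.00059). Sdhb, the iron-sulfur subunit that takes electrons from Sdha, stood at 85, 87.1 and 92.4 CPM in H2O2 libraries and at 77.2, 75.9 and 78.5 CPM in control libraries. Here the H2O2 libraries lay above all controls, with a log2 fold change of 0.19 (SE 0.0388, edgeR adjusted p = 0.000638). Within a library the ratio of Sdhb to Sdha read counts was 0.358, 0.376 and 0.395 with H2O2 and 0.301, 0.293 and 0.301 in controls. This ratio, chosen after the values were seen, does not depend on scaling between libraries, and its groups did not overlap (exact two-sided permutation p = 0.1, the smallest that 3 against 3 libraries allow). It sets a transcript of 1142 bases over a transcript of 2900 bases and was not corrected for the trend with length. With the offset for length and GC both genes kept their calls, Sdhb at 0.15 and Sdha at -0.12.

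The membrane anchors of complex II, which hold its haem and ubiquinone site, were Sdhc and Sdhd. Sdhd was at 93.3, 97.8 and 98.1 CPM with H2O2 and at 91.9, 86.6 and 87.4 CPM in controls, a log2 fold change of 0.12 (SE 0.0373, edgeR adjusted p = 0.0199). Its call was lost without H2O2 replicate 2 or 3 and without control replicate 2 or 3, with edgeR adjusted p of 0.0527 to 0.114 in those fits, and after the offset for length and GC (0.0817). Sdhc, at 141, 143 and 137 CPM with H2O2 and 128, 140.4 and 143 CPM in controls, overlapped between groups and did not pass (log2 fold change 0.03). As a whole complex II took 0.0560% ± 0.000576 of gene counts with H2O2 and 0.0560% ± 0.000537 in controls (SD, n = 3 each).

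In complex III, 6 of 9 members rose and 0 fell, and 4 of its 5 small subunits rose, with a median log2 fold change of 0.43 over the 5. Uqcrq, a small subunit next to the ubiquinone site, was at 112, 100.2 and 103 CPM in H2O2 libraries and at 75.8, 75.6 and 77.9 CPM in control libraries. That is 1.38-fold higher (log2 fold change 0.46, SE 0.0403, edgeR adjusted p = 3.07e-09), and every H2O2 library exceeded every control by a wide margin. Uqcr10, a single-span membrane subunit, was at 68.5, 62.0 and 64.8 CPM with H2O2 and at 48.4, 45.2 and 48.6 CPM in controls (1.37-fold, edgeR adjusted p = 2.3e-08). The hinge protein Uqcrh, which assists the docking of cytochrome c, was at 109, 101 and 103 CPM with H2O2 and at 83.3, 78.1 and 80.5 CPM in controls (1.29-fold, edgeR adjusted p = 5.34e-08). Uqcr11, the smallest subunit of the complex, was at 40.2, 38.3 and 39.7 CPM with H2O2 and at 31.1, 26.5 and 30.1 CPM in controls (1.35-fold, edgeR adjusted p = 1.77e-06). In these 4 genes the groups were separate, and the control library with the lowest value was replicate 2 in each. With the offset for length and GC all 4 were still called higher, with smaller values. They were 0.31 for Uqcrq, 0.33 for Uqcr10, 0.26 for Uqcrh and 0.28 for Uqcr11.

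The electron-carrying and core subunits of complex III moved less. Their transcripts are longer, with medians of 1441.5 and 1774.5 bases, against 445 bases for the small subunits. Without the offset, median log2 fold changes were 0.43 for the small subunits, 0.06 for the electron-carrying and 0.03 for the core subunits. With the offset for length and GC they were 0.28, 0.04 and 0.02. The part of length in this contrast was not tested. Cyc1, which encodes cytochrome c1, rose to 193, 186 and 190.3 CPM with H2O2, against 169, 164 and 167 CPM in controls (log2 fold change 0.19, SE 0.0307, edgeR adjusted p = 5.67e-05). The core protein gene Uqcrc1 rose by 0.11 (SE 0.0346, edgeR adjusted p = 0.0271), a call lost without H2O2 replicate 1 (0.07, edgeR adjusted p = 0.198) and without control replicate 1, 2 or 3 (0.0628 to 0.0694). Its partner Uqcrc2 stood at 107, 104 and 105 CPM with H2O2 and 107, 109.7 and 109 CPM in controls and did not pass (-0.05). The Rieske iron-sulfur protein gene Uqcrfs1 (-0.08) and the small subunit gene Uqcrb (-0.04) did not pass either. With the offset for length and GC both were called lower, Uqcrfs1 at -0.10 (edgeR adjusted p = 0.0454) and Uqcrb at -0.18 (edgeR adjusted p = 0.00481). Reads of Uqcrb are uncertain, since 43.4% of its 50-base words also occur in transcripts of other genes, including 4 pseudogenes. The share of the complex in gene counts was 0.0923% ± 0.00221 with H2O2 and 0.0815% ± 0.00127 in controls (SD, n = 3 each).

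In complex IV most subunits rose. Its nuclear subunits surround a catalytic core made from mitochondrial DNA. Of its 18 symbols 14 were tested, of which 10 rose and 0 fell, and the 10 isoforms used in most tissues had log2 fold changes between 0.12 and 0.30. Under the joint offset, 9 members of the complex rose, from 0.10 for Cox6c to 0.22 for Cox7b, with Cox6a1 at 0.17, Cox7c at 0.16 and Cox4i1 at 0.19. Cox6a1 was at 149, 147 and 152 CPM in H2O2 libraries and at 122, 119.5 and 123 CPM in control libraries. The groups were far apart relative to their spread, with a log2 fold change of 0.30 (SE 0.0325, edgeR adjusted p = 1.35e-07). Cox6b1, on the side of the complex that faces cytochrome c, was at 106, 109 and 104 CPM with H2O2 and at 90.5, 81.6 and 87.3 CPM in controls (0.30, edgeR adjusted p = 2.8e-06). Cox7b was at 83.8, 82.8 and 84.7 CPM with H2O2 and at 70.7, 64.2 and 69.7 CPM in controls (0.30, edgeR adjusted p = 4.3e-06).

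Cox4i1, the common form of a subunit through which ATP regulates the enzyme, was at 142, 125 and 129.9 CPM with H2O2 and at 110.4, 103 and 111 CPM in controls (log2 fold change 0.29, edgeR adjusted p = 1.15e-05). H2O2 replicate 1 was the highest of its group in this gene, and the groups did not overlap. The following genes were separate between groups as well. Cox7c was at 86.2, 85 and 83.5 CPM with H2O2 and at 72.2, 67.0 and 70.7 CPM in controls (0.28, edgeR adjusted p = 5.72e-06), a value that is uncertain because 53.0% of its 50-base words occur in other genes. Cox6c was at 122, 118 and 122 CPM with H2O2 and at 107, 98.0 and 106 CPM in controls (0.22, edgeR adjusted p = 6.03e-05). Cox7a2 was at 69.6, 68.1 and 67.2 CPM with H2O2 and at 61.7, 51.1 and 56.8 CPM in controls (0.27, edgeR adjusted p = 0.000184). Cox5b (0.24) rose as well. Cox7a2l was at 81.8, 75.1 and 80.4 CPM with H2O2 and at 68.6, 71.4 and 68.4 CPM in controls (0.19, edgeR adjusted p = 0.00131). It takes part in joining complexes III and IV into supercomplexes, and the C57BL/6 strain is known for a short form of it.

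Cox8a and Cox5a moved least among the abundant subunits of complex IV. Cox8a, per length the most abundant member of the complex at 274 CPM per kilobase with H2O2 and 248 CPM per kilobase in controls, was at 154, 144 and 154 CPM with H2O2 and 142, 129.7 and 139 CPM in controls. Its log2 fold change was 0.14 (SE 0.0366, edgeR adjusted p = 0.00633), and the call was lost without control replicate 2 (0.10, edgeR adjusted p = 0.0842) and after the offset for length and GC (0.01, edgeR adjusted p = 0.912). Cox5a, the binding site of a thyroid hormone metabolite, stood at 43.1, 47.5 and 49.6 CPM with H2O2 and 44.5, 42.1 and 42.7 in controls. It did not pass (0.12, edgeR adjusted p = 0.101), but was called higher without H2O2 replicate 1 (0.17, edgeR adjusted p = 0.0211). With the offset its value was 0.02. The complex as a whole took 0.114% ± 0.00238 of gene counts with H2O2 and 0.0962% ± 0.00435 in controls (SD, n = 3 each).

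The minor isoforms of complex IV were at low levels or at 0. Cox4i2, known as a lung isoform tied to low oxygen, had 1, 1 and 0 reads in H2O2 libraries and 1, 2 and 2 reads in control libraries. Cox7b2 and Cox8c had 0 reads in all 6 libraries, and Cox6b2 had 0 to 3 reads, so that none of these 4 genes was tested. The heart and muscle forms Cox7a1 and Cox8b lay below 1 CPM in every library, with log2 fold changes of 0.68 (SE 0.512) and 0.49 (SE 0.422) that did not pass. Cox6a2, also a heart and muscle form, stood at 2.93, 2.5 and 3.10 CPM with H2O2 and 3.19, 3.42 and 2.96 CPM in controls and did not pass (-0.17, SE 0.151). Striated muscle markers summed to 5.44 to 6.24 CPM with H2O2 and 4.60 to 6.23 CPM in controls, most of it from Tnnt2. The other markers of this list, Myh6, Actc1, Ckm and Mb, each lay below 1 CPM in every library. The part of muscle markers in the Cox6a2 level was not tested. Cox7a1 made up 0.649% ± 0.205 of the joint reads of Cox7a1 and Cox7a2 with H2O2 and 0.497% ± 0.457 in controls (SD, n = 3 each, exact two-sided permutation p = 0.7).

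**Figure D3:**
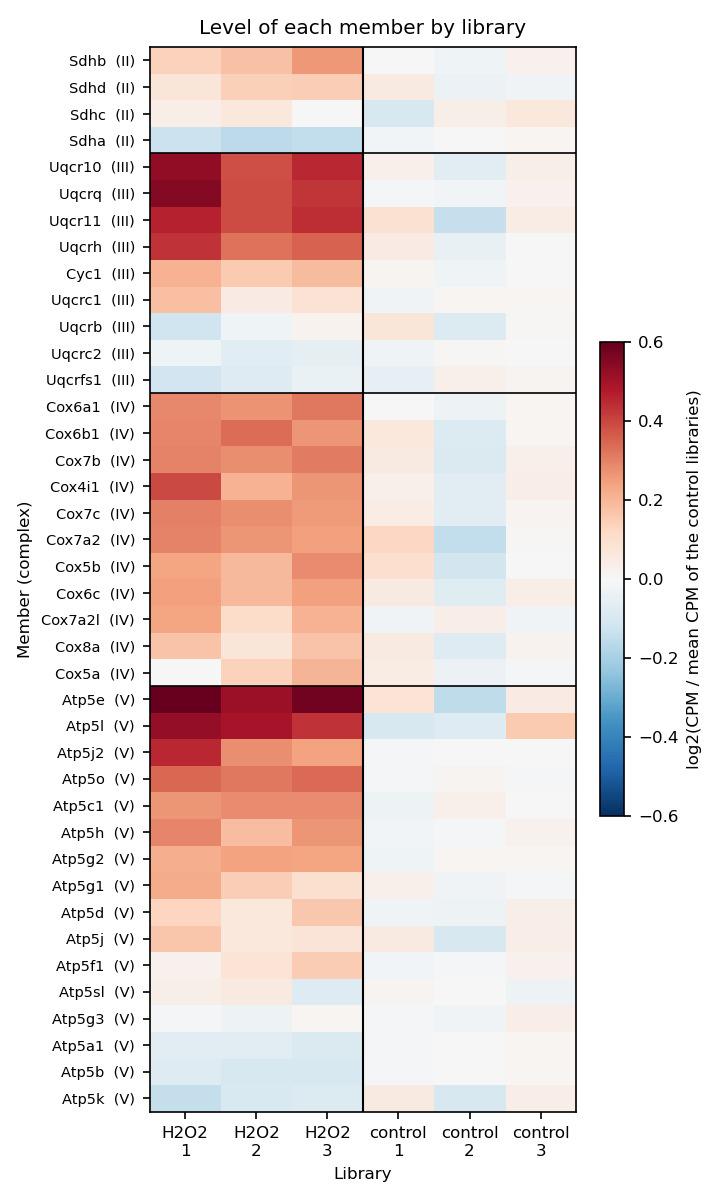
Level of each member with a mean of at least 10 CPM in each library, as the log2 ratio of its CPM to the mean of the control libraries, with H2O2 libraries left of the black line and control libraries right of it. Rows are grouped by complex; rows above their control mean are red, and Sdha, Uqcrc2, Uqcrfs1, Atp5a1, Atp5b and Atp5k are blue in all 3 H2O2 libraries.

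Complex V is built from the F1 head, which makes ATP, the membrane part with its rotating c ring, a central stalk and a peripheral stalk. Of its 17 symbols 10 rose and 1 fell. Together they took 0.361%, 0.357% and 0.363% of gene counts with H2O2 and 0.356%, 0.353% and 0.359% in controls, so the groups overlapped. The head's alpha and beta subunits form its catalytic ring and are by far the most abundant members. Atp5b, the catalytic beta subunit, was at 1385, 1366 and 1368 CPM in H2O2 libraries and at 1447, 1459.5 and 1473 CPM in control libraries. Its log2 fold change was -0.09 (SE 0.0261, edgeR adjusted p = 0.016), with all H2O2 libraries below all controls, and the call was lost without control replicate 2 (edgeR adjusted p = 0.0577) or 3 (0.104). Atp5a1, the alpha subunit, was at 781, 779 and 767 CPM with H2O2 and at 809, 815 and 821 CPM in controls. It also had no overlap between groups and did not pass (-0.07, edgeR adjusted p = 0.0508). DESeq2's test (adjusted p = 0.0367) and limma-voom (adjusted p = 0.03) called Atp5a1 lower.

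The 3 genes of the central stalk all rose. Atp5c1, the gamma subunit that turns within the ring, was at 167, 169 and 169 CPM with H2O2 and at 136, 142 and 139 CPM in controls (log2 fold change 0.28, SE 0.0315, edgeR adjusted p = 2.74e-07). Atp5e, the epsilon subunit at the foot of the stalk, was at 40.8, 38.1 and 39.9 CPM with H2O2 and at 28.3, 24.0 and 27.6 CPM in controls (0.57, SE 0.0570, edgeR adjusted p = 2.94e-08). Atp5d, the delta subunit, rose by 0.12 (SE 0.0332, edgeR adjusted p = 0.00947), and its call was lost with the offset for length and GC (0.02, edgeR adjusted p = 0.669) and without control replicate 2 (0.11, edgeR adjusted p = 0.0611). Reads of Atp5c1, Atp5d and Atp5e together, divided by those of Atp5a1 and Atp5b, gave 0.172, 0.171 and 0.177 with H2O2 and 0.139, 0.139 and 0.140 in controls. This ratio was chosen after the values were seen, and its groups did not overlap (exact two-sided permutation p = 0.1, the smallest possible). It was not corrected for length, and the stalk transcripts are shorter (median 931 bases, against 2193.5 for Atp5a1 and Atp5b). With the offset the median log2 fold change was 0.23 over the stalk genes and -0.06 over Atp5a1 and Atp5b.

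In the peripheral stalk, which keeps the head from turning, 3 of 4 genes rose. Atp5o, which encodes the protein named for the oligomycin sensitivity it confers, was at 89.6, 87.7 and 89.3 CPM with H2O2 and at 70.2, 71.3 and 69.9 CPM in controls (log2 fold change 0.33, edgeR adjusted p = 1.31e-07). Atp5h was at 111, 103 and 109 CPM with H2O2 and at 89.7, 90.0 and 92.1 CPM in controls (0.25, edgeR adjusted p = 1.28e-05). Both had clearly separate groups. Of the exon bases of Atp5o, 35.6% lie across from exons of a gene on the other strand, and 50.3% of its 50-base words and 66.6% of those of Atp5h occur in other genes, so these values are uncertain. Atp5f1 rose by 0.09 (edgeR adjusted p = 0.0497), a call that was lost with DESeq2's test (adjusted p = 0.055), limma-voom (0.0519) and the offset (0.0584). It was also lost without any single control library or without H2O2 replicate 2 or 3, with a value of 0.06 (edgeR adjusted p = 0.236) without H2O2 replicate 3. Atp5j did not pass (0.10, edgeR adjusted p = 0.0827). It was called higher with upper-quartile scaling (edgeR adjusted p = 0.049) and with no filter on low counts (0.0432). The same held with a block for the replicate number (0.0469) and without control replicate 1 (0.0325). With the offset Atp5j was at -0.03 (edgeR adjusted p = 0.65). Of the small membrane subunits, Atp5l was at 35.4, 34.7 and 33.2 CPM with H2O2 and at 23.0, 23.3 and 27.4 CPM in controls (0.49, edgeR adjusted p = 1.05e-06). Atp5j2 was at 75.7, 67.0 and 65.4 CPM with H2O2 and at 55.1, 55.3 and 55.4 CPM in controls (0.33, edgeR adjusted p = 9.8e-06). Atp5k, in contrast, stood at 40.7, 42.3 and 42.5 CPM with H2O2 and 46.7, 42.1 and 46.2 CPM in controls and did not pass (-0.10), and with the offset it was called lower (-0.23, edgeR adjusted p = 0.000554). Reads of Atp5l share 84.8% of their 50-base words with other genes, 12 of them pseudogenes.

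The c ring is made of 1 protein encoded by 3 genes that differ in the mitochondrial targeting peptide, which is removed after import. Atp5g2 was at 86.0, 87.4 and 87.3 CPM with H2O2 and at 72.8, 74.6 and 74.7 CPM in controls (log2 fold change 0.23, SE 0.0363, edgeR adjusted p = 3.4e-05). Atp5g1 was at 79.8, 75.6 and 72.9 CPM with H2O2 and at 69.7, 67.3 and 67.9 CPM in controls (0.16, SE 0.0403, edgeR adjusted p = 0.0062). Atp5g3, the most abundant of the 3, was at 188, 185 and 190.5 CPM with H2O2 and at 188, 186 and 194 CPM in controls. It overlapped between groups and did not pass (-0.01, SE 0.0308). The calls of the trio changed with the joint offset for length and GC: there Atp5g2 (0.10, edgeR adjusted p = 0.0908) and Atp5g1 (0.04, edgeR adjusted p = 0.446) did not pass and Atp5g3 was called lower (-0.10, edgeR adjusted p = 0.025). Atp5g1 also lost its call without H2O2 replicate 1 (0.12, edgeR adjusted p = 0.06).

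Within the c ring trio, Atp5g3 took 53.1%, 53.1% and 54.3% of the joint reads with H2O2, against 56.8%, 56.7% and 57.7% in controls. Atp5g2 took 24.8% ± 0.427 with H2O2 and 22.3% ± 0.381 in controls, and Atp5g1 took 21.7% ± 0.886 with H2O2 and 20.6% ± 0.494 in controls (SD, n = 3 each). Groups did not overlap for Atp5g3 and Atp5g2 (exact two-sided permutation p = 0.1, adjusted p = 0.167 over 5 shares of paralogs), and they did for Atp5g1 (exact p = 0.2, adjusted p = 0.25). In transcripts of other genes, mainly pseudogenes, 100% of the 50-base words of Atp5g2 and 66.0% of those of Atp5g1 occur, against 0% for Atp5g3, so the proportions rest on reads that the authors' counting may have set aside. Atp5s (0.24) and Atp5sl (0.01), the symbols that name no structural subunit, did not pass.

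**Figure D4:**
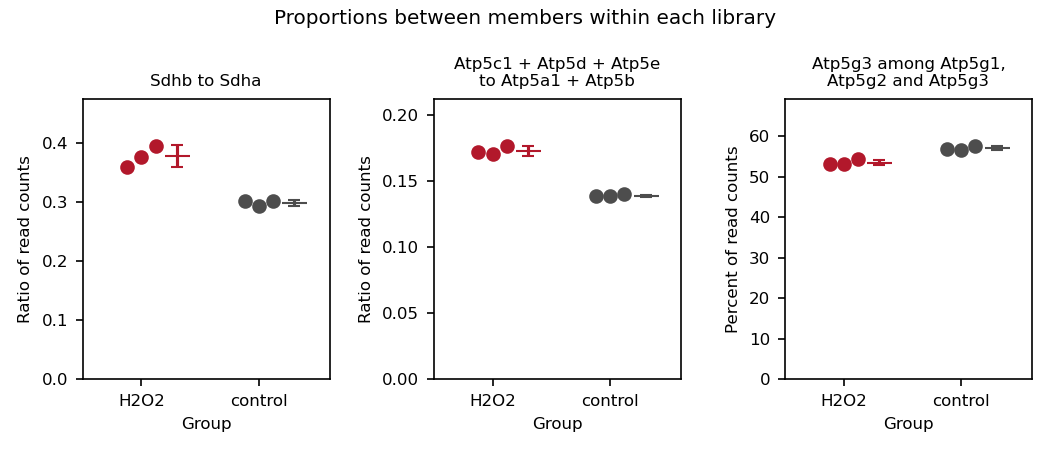
Proportions between members within each library (points), with mean ± SD (n = 3) beside them, H2O2 left of control: the ratio of Sdhb to Sdha read counts, the ratio of central stalk to alpha and beta subunit read counts of complex V, and the percent of c ring reads from Atp5g3. The H2O2 points lie above the control points in the left and middle panels and below them in the right panel.

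Levels per length set the members in order. Atp5b led at 717 CPM per kilobase with H2O2 and 762 in controls, followed by Atp5a1 at 314 with H2O2 and 329.9 in controls. In complex III Uqcrq led at 259.6 CPM per kilobase with H2O2 and 189 in controls, and Uqcrc2 was lowest at 55.5 with H2O2 and 57.3 in controls. In complex II Sdha led at 80.8 CPM per kilobase with H2O2 and 89.2 in controls, and Sdhc was lowest at 44.2 with H2O2 and 43.3 in controls. These levels depend on the 1 transcript chosen per gene. Libraries of a group differed little: over the 40 members with a mean of at least 10 CPM, the coefficient of variation had a median of 3.00% with H2O2 (0.444% for Atp5c1 to 7.96% for Atp5j2) and 2.66% in controls (0.291% for Atp5j2 to 9.94% for Atp5l).

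Genes around the complexes were read from separate lists. Of the tested assembly factors, 0 of 2 for complex II, 1 of 5 for complex III, 2 of 18 for complex IV and 0 of 3 for complex V rose, and 0 fell in each list. The 11.1% of complex IV factors that rose is near the 9.70% of all tested genes. The rises were Uqcc2, an assembly factor of complex III (0.46, SE 0.0536, edgeR adjusted p = 4.09e-07), and the complex IV factors Pet100 (0.35, SE 0.0961, edgeR adjusted p = 0.0103) and Cox14 (0.17, SE 0.0503, edgeR adjusted p = 0.0187). Uqcc2 was at 36.3, 34.8 and 35 CPM with H2O2 and at 25.1, 24.7 and 27.3 CPM in controls, with no overlap between the groups. The median log2 fold change was -0.17 over 2 factors of complex II, 0 over 5 of complex III, 0 over 18 of complex IV and 0.04 over 3 of complex V, where Sdhaf2 (-0.01) and Tmem70 (-0.08) did not pass. Cox14 and Pet100 each lost the call without H2O2 replicate 3 (edgeR adjusted p = 0.0956 and 0.0519), and Cox14 also without control replicate 2 (0.0573) or 3 (0.0515) and with the offset (0.313).

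Among the carriers that serve the chain, 0 of 4 passed edgeR's test, with an unadjusted p under 0.05 for Slc25a3 (-0.07) and Slc25a5 (0.07). Slc25a4, an exchanger of ADP and ATP, stood at 687, 663 and 691 CPM with H2O2 and 672, 678 and 676 CPM in controls. Of 6 accessory proteins outside the symbol pattern, 2 rose, both small membrane subunits of ATP synthase. They were 2010107E04Rik (0.27, SE 0.0491, edgeR adjusted p = 0.000231) and Usmg5 (0.24, SE 0.0457, edgeR adjusted p = 0.000397), and with the offset neither passed (0.11 and 0.09). With the offset 2 of the 6 accessory genes (33.3%) and 1 of the 4 carriers (25%) were called lower, against 10.7% of all tested genes. Of 9 tested regulators of respiratory genes 1 fell (11.1%, near the 10.8% of all tested genes), the coactivator Pprc1, at 119, 122 and 118 CPM with H2O2 and 138, 129 and 129 CPM in controls (-0.14, SE 0.0348, edgeR adjusted p = 0.0037). Nrf1 (-0.04), Gabpa (0.04) and Yy1 (0), whose motifs were searched above, did not pass.

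Subunits of complexes III to V that come from mitochondrial DNA were read from the same libraries. Of 4 tested, 2 fell (50%, against 10.8% of all tested genes) and 0 rose. The falls were mt-Cytb of complex III and mt-Co1 of complex IV. mt-Cytb was at 1054, 885 and 963 CPM with H2O2 and 1115, 1229.5 and 1205 CPM in controls (log2 fold change -0.29, SE 0.0421, edgeR adjusted p = 1.15e-05). For mt-Co1 the log2 fold change was -0.30 (SE 0.0587, edgeR adjusted p = 0.000502). H2O2 replicate 1 of mt-Co1, at 3394 CPM, lay above control replicate 1, at 3265 CPM, and DESeq2's test did not call this gene (adjusted p = 0.118). The words of mt-Co2, mt-Co3 and mt-Atp6 are nearly all shared with pseudogenes (99.5% to 100%), and these genes lay below 1 CPM in every library. mt-Atp8 shares 0% of its words and had 0 or 1 reads in each library. The cause of these low counts was not tested. Of the words of mt-Co1, 51.1% are shared with 3 pseudogenes, so its value is uncertain.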

How the data were processed

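The authors deposited a table of raw counts for each library, with 1 row per gene symbol. Their build was mm10, and the tools were STAR 2.5.3, HTSeq, DESeq2, cutadapt and bcl2fastq 2.17.1.14, per the submitters' processing notes. The annotation and the strand setting are not given in the sources used here, so reads of overlapping genes on opposite strands cannot be told apart. HTSeq's 5 summary classes entered neither library sizes nor tests (no feature 4.76% to 5.46%, ambiguous 3.17% to 3.30%, aligned to several places 11.0% to 11.7% of counted reads).

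Genes were filtered with filterByExpr and tested with edgeR 4.0.16 (TMM factors, quasi-likelihood test, treatment as the only term, Benjamini-Hochberg adjustment over all 12924 genes; limma 3.58.1, DESeq2 1.42.0, R 4.3.3). Each SE is the log2 fold change divided by the root of the F statistic. Transcript lengths, GC content and exon overlaps came from GENCODE M21 (GRCm38, the assembly of mm10), with the shortest principal transcript per gene, for 99.1% of tested genes; shared words are exact 50-base matches on either strand among its transcripts. The offset was a loess trend per library with a span of 0.3, fitted on genes that are no members. Promoter sequence came from RefSeq (GRCm38.p6).

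Members and lists were chosen with earlier results of these data known, and roles within complexes were grouped after values were seen. Named with values per library were, per complex, the members with the smallest p, the most abundant per length, those passing against the majority, the least changed abundant member and the paralogs; of each other list, up to 2 passing members or its most abundant one. Alternatives covered scaling, filters, DESeq2's test, limma-voom, the offset, the replicate number as a block and each library left out. The ratios between members, and leaving out libraries for them, were added after seeing the data. The fits were tested on simulated data first.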

Additional observations from a re-analysis of the deposited data

How the results depend on the processing

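Over the alternatives, the side of the threshold held for 682 of 711 values of 42 named genes. Of the rest 27 lost the call, 2 gained it and 0 changed direction with a call. Many of these genes were named for their small p, so this share does not speak for all members. Outside this set, Atp5f1, Uqcrc1 and Atp5d lost their calls in some fits, and Uqcrb, Uqcrfs1 and Atp5k were called lower with the offset. DESeq2's test and limma-voom called Atp5a1 lower. Atp5j was called higher with upper-quartile scaling, no filter on low counts, the replicate block or without control replicate 1. Cox5a was called higher without H2O2 replicate 1, and Atp5k lower without control replicate 2. Sdhc, Atp5g3 and Sdhaf2, which did not pass, changed sign near 0 in some fits. The number of members that rose was 23 to 27 over fits without 1 library (23 without control replicate 2) and 22 to 29 over all alternatives. With the length and GC offset 6 members fell in place of 2 and the median log2 fold change was 0.13 in place of 0.21, both also with the replicate block added. With the offset, complex II had 1 rise, complex III 2 falls, and complex V 6 rises and 3 falls. With the replicate block added to the offset, complex II had 1 rise, complex III 2 falls and complex V 3 falls. DESeq2's test and limma-voom called 2 falls in complex V in place of 1. The cause of these differences was not tested.

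Without 1 library in turn, members that fell numbered 1 to 2, rises in complex II 1 to 2, falls in complex V 0 to 1, all genes that fell 926 (without H2O2 replicate 1) to 1313 and all genes that rose 891 to 1178. The difference in the share of Cox7a1, H2O2 minus control, was -0.0191 to 0.412 percentage points and changed sign without control replicate 2.

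The labels give both groups the numbers 1 to 3 and do not say that a number is shared between groups. Deviations of same-numbered libraries from their group means correlated at 0, 0.03 and -0.03, and those of unlike-numbered libraries at -0.04 to 0.03. With 3 libraries a group, these values cannot tell whether same-numbered libraries were handled together. With the replicate block 29 members rose and 2 fell. The shift of the median of all tested genes was at most 0.008 under any scaling.

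At this depth, genes of a few reads such as Cox7a1 and Cox8b cannot show a change of the size seen in the other members.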
